A study of Homo sapiens with 4 samples.

Results

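HMGA1, HMGA2, LIN28A, LIN28B, IGF2BP1, IGF2BP2, IGF2BP3 and IGF2 are grouped here as oncofetal genes. The name refers to activity in embryonic or fetal tissue and in many tumours. How far each gene is silent in adult tissues was not examined here. The 8 genes were taken by symbol from a deposited matrix of 57815 rows, and each had 1 row. HMGA2 was chosen by its FPKM (fragments per kilobase of transcript, scaled to the size of the library) in the 2 MKN1 libraries, where it was higher after HOXB9 knockdown. Its values are therefore given as a description and without a test. The other 7 were taken as genes of the same pathway.

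The libraries came from MKN1 and AGS, which are established gastric cancer lines. Cells received a small interfering RNA against HOXB9 (siHOXB9, labelled as a HOXB9 knockdown) or a scrambled control (siScramble, labelled WT), in both cases by transfection with Lipofectamine 2000. The title of the MKN1 control spells the line MNK1, and its source and column give MKN1. The groups were MKN1 siHOXB9, MKN1 siScramble, AGS siHOXB9 and AGS siScramble, with 1 library of polyadenylated RNA each, so no value within a line has a replicate, and the 2 lines are the only repeat of the knockdown. Estimated depth was 10680000, 11500000, 12500000 and 13010000 fragments in the same order. HOXB9 itself, a homeobox transcription factor, was at 0.218 FPKM with siHOXB9 and 1.14 FPKM with siScramble in MKN1, which is 19.1% of the control. In AGS it was at 4.44 FPKM with siHOXB9 and 16.4 FPKM with siScramble, or 27.0%. The MKN1 values correspond to only an estimated 5.40 and 30.4 fragments. As log2 ratios with 1 FPKM added, the changes were -0.81 in MKN1, which is less than 2-fold, and -1.68 in AGS. Over both lines, limma gave -1.25 (SE 0.27, adjusted p = 0.355). Given its few fragments, the knockdown in MKN1 rests on low values. Of 6 epithelial marker genes, 5 reached 1 FPKM in MKN1 and 6 in AGS. The keratin gene KRT8 was at 1230 and 1077 FPKM in MKN1 and 1880 and 1566 FPKM in AGS (siHOXB9 and siScramble), while the epithelial adhesion gene EPCAM was at 2.70 and 2.14 FPKM in MKN1 and 359 and 328 FPKM in AGS. Among markers of other cell types, 1 of 5 leukocyte genes reached 1 FPKM in any library (LYZ, the lysozyme gene, at 2163 and 2197 FPKM in AGS). Of 3 endothelial genes 1 did (CDH5, at 0.856 FPKM with siHOXB9 and 1.95 FPKM with siScramble in MKN1), and 0 of 3 erythroid genes did. Of 5 fibroblast genes, 4 reached 1 FPKM in MKN1 and 2 in AGS, so neither line had the full set. Their summed levels were 71.8 and 57.9 FPKM in MKN1 and 42.2 and 28.1 FPKM in AGS.

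The let-7 microRNAs bind messenger RNAs through their seed and lower them as cells mature. LIN28A and LIN28B are RNA-binding proteins that block the maturation of let-7, and let-7 in turn represses LIN28B, HMGA2 and the IGF2BP genes. HMGA1 and HMGA2 are small chromatin proteins that bind AT-rich DNA. IGF2BP1, IGF2BP2 and IGF2BP3 are RNA-binding proteins that bind, stabilise or localise messenger RNAs, among them that of the growth factor IGF2. Mature let-7 was not measured here, since the libraries hold polyadenylated RNA.

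Most of these genes carry a match to the let-7 seed in an annotated 3' UTR. RefSeq (GRCh38.p14) gives 9 mature let-7 family sequences of 22 bases, counting miR-98, and all 9 share bases 2 to 8. In 4 of them, chosen because they differ from each other outside the seed, the capitals mark the seed.
hsa-let-7a-5p: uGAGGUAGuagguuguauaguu
hsa-let-7d-5p: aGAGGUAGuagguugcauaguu
hsa-let-7e-5p: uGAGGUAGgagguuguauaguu
hsa-miR-98-5p: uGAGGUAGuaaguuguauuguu

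The complement of that seed, CTACCTC, was searched on the transcript strand in the longest annotated 3' UTR of each protein-coding gene in GENCODE 29 (GRCh38). At least 1 match was present in 9.71% of 19120 genes and in 6 of the 8 oncofetal genes. LIN28B held 4 matches in 4549 bases and IGF2BP1 held 4 in 6206 bases. At least 4 matches were present in 0.0628% of all genes, and in 0.2% and 0.4% of the 500 genes nearest in 3' UTR length to LIN28B and IGF2BP1. HMGA1, LIN28A, IGF2BP2 and IGF2BP3 held 1 match each, which 7.6% to 17.2% of genes of like length also had, and IGF2 held none. The longest 3' UTR of HMGA2, of 7421 bases, belongs to a transcript with 4 exons and held no match. The 3' UTR of a transcript with 5 exons (ENST00000403681.6, 3003 bases) held 4 matches, and of the 7 coding HMGA2 transcripts it was the 1 with any match, a choice made after its matches were seen. The deposited values are per gene, so they do not show which HMGA2 transcript was present. The matches of HMGA2 and the first match of each other gene are printed with up to 22 bases before them and 1 after, as annotated on the reference, with the match in capitals.
HMGA2 site 1 (chr12:65963293-65963320, forward strand): ggggcgccaacgttcgatttCTACCTCa
HMGA2 site 2 (chr12:65964526-65964555, forward strand): aatatatccccactactcaataCTACCTCt
HMGA2 site 3 (chr12:65964938-65964967, forward strand): ggactaattgacttgcaaagacCTACCTCc
HMGA2 site 4 (chr12:65965791-65965820, forward strand): gttgtacaatcaaaacacactaCTACCTCt
HMGA1 (chr6:34245822-34245851, forward strand): ccatttttcctctgttcacaaaCTACCTCt
LIN28A (chr1:26427341-26427370, forward strand): ttggagtgcacagcctattgaaCTACCTCa
LIN28B site 1 (chr6:105078805-105078834, forward strand): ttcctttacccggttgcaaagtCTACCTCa
IGF2BP1 site 1 (chr17:49051054-49051083, forward strand): gcaatgctgtgtgcgaagtaaaCTACCTCa
IGF2BP2 (chr3:185644220-185644249, reverse strand): cgagaaaaacacacagaagaagCTACCTCa
IGF2BP3 (chr7:23311795-23311824, reverse strand): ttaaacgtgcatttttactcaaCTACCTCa

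**Figure D1:**
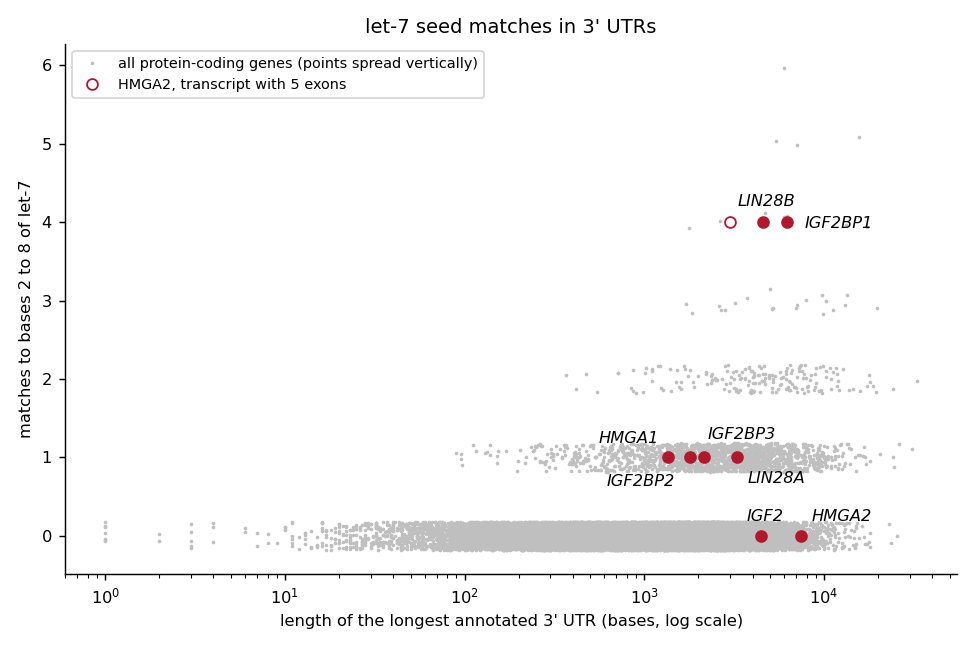
Matches to bases 2 to 8 of let-7 (vertical axis) against the length of the longest annotated 3' UTR (horizontal axis, log scale) for 19120 protein-coding genes (grey) and the 8 oncofetal genes (red). LIN28B and IGF2BP1 lie at 4 matches, and the open circle is an HMGA2 transcript with 5 exons and a 3' UTR of 3003 bases, also with 4.

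The levels of the 8 genes differed widely. HMGA1 was among the most abundant messages in all 4 libraries, and LIN28A, LIN28B and IGF2 were below 1 FPKM throughout. HMGA2, IGF2BP2 and IGF2BP3 reached 1 FPKM in every library. Their levels ranged from low to intermediate, above those of 10.3% (IGF2BP2 in MKN1 siScramble) to 59.3% (IGF2BP2 in AGS siHOXB9) of protein-coding genes at 1 FPKM or more. IGF2BP1 reached 1 FPKM in MKN1 only, and was near 0 in AGS. In all, 5 of the 8 genes reached 1 FPKM in some library and 4 reached it in every library.

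**Figure D2:**
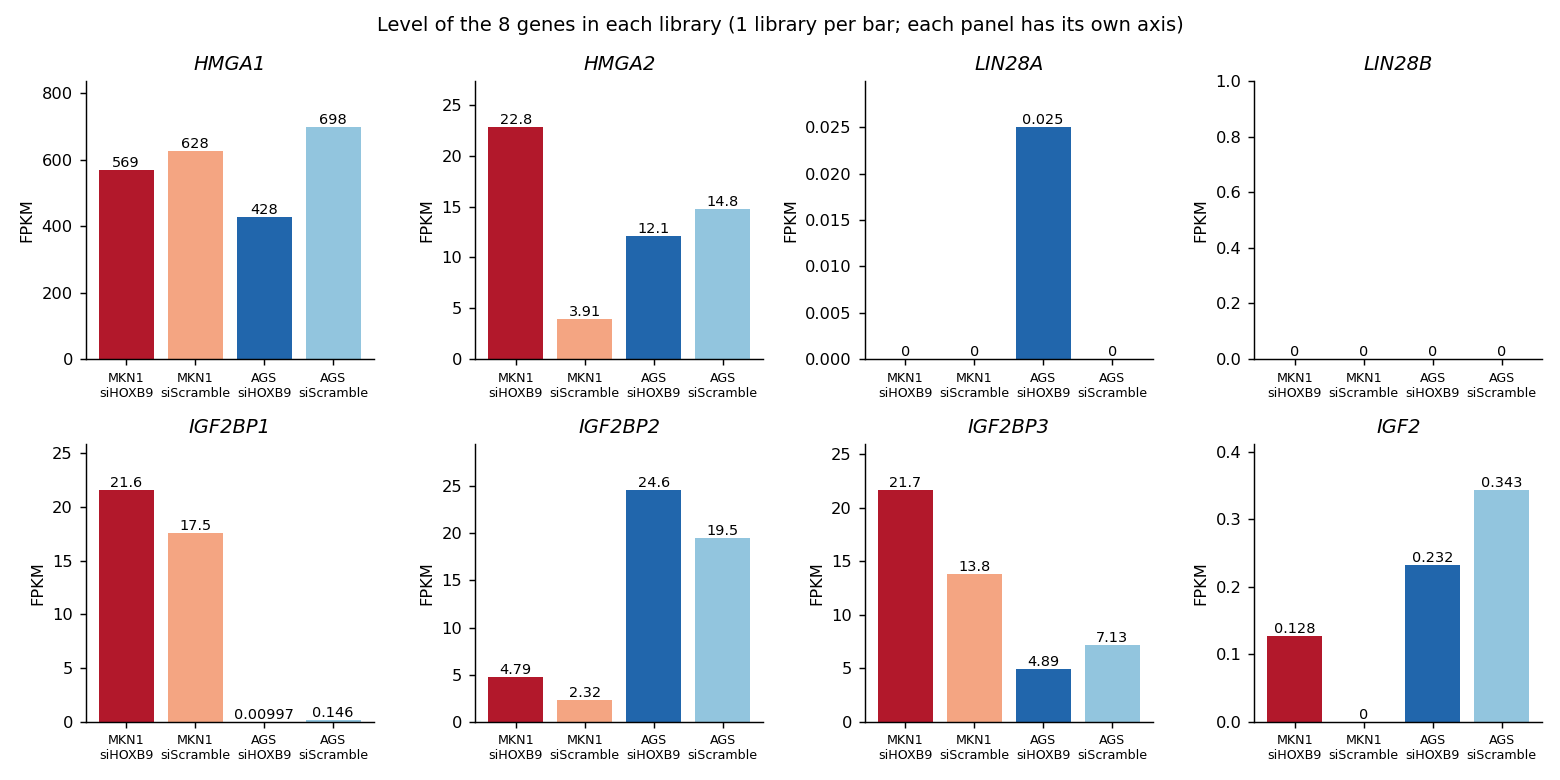
Level in FPKM (vertical axes, linear and from 0, a separate scale per panel) of the 8 genes in the 4 libraries, 1 library per bar and therefore no error bar. HMGA2 is highest in MKN1 siHOXB9 (22.8 FPKM) and lowest in MKN1 siScramble (3.91 FPKM), and IGF2BP1 is near 0 in both AGS libraries.

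HMGA2 (ENSG00000149948.13, chromosome 12, 65824131 to 65966295, forward strand, GRCh38, 11 annotated transcripts) stood at 22.8 FPKM in MKN1 siHOXB9 and 3.91 FPKM in MKN1 siScramble. In AGS it was at 12.1 FPKM with siHOXB9 and 14.8 FPKM with siScramble. The MKN1 control was the lowest of the 4 libraries, below both AGS libraries, and the MKN1 knockdown was the highest. The fold in MKN1 was 5.84, and the log2 difference with 1 FPKM added to each value, the scale of every change given here, was 2.28 in MKN1 and -0.27 in AGS. Between the lines (MKN1 minus AGS), HMGA2 differed by 0.86 in the siHOXB9 libraries and by -1.69 in the siScramble libraries, so the lines stood in opposite order with the 2 siRNAs.

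Of 13122 rows with at least 1 FPKM in either MKN1 library, 28 had a larger increase than HMGA2, among them 6 of 10749 protein-coding rows. HMGA2 was chosen for its increase in these libraries, so a high rank follows from the choice and is a description only. An increase of 2-fold or more on this scale was met by 2.1% of all these rows, a decrease by 1.94%. The HMGA2 level stood above that of 57.9% of the protein-coding genes at 1 FPKM or more in MKN1 siHOXB9 and above that of 18.7% in MKN1 siScramble. Depending on which coding transcript the fragments came from, the value corresponds to an estimated 85.5 to 1909 fragments in MKN1 siHOXB9 and 15.8 to 352 fragments in MKN1 siScramble, so it does not rest on single fragments. In bulk RNA, a higher level per cell and a larger share of cells with HMGA2 cannot be told apart.

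HMGA2 shares exon bases with 1 other annotated gene, AC090673.1, an antisense transcript on the opposite strand. The overlap covers 384 of 15403 exon bases, lies in 3 of the 11 HMGA2 transcripts and does not touch the transcript with the longest 3' UTR. AC090673.1 was listed at 0 in all 4 libraries, so adding its value could not change the MKN1 difference of 2.28. A listed 0 does not show to which gene reads in the shared bases were assigned. No strand-specific library step is described in the labels, and the part of the overlap in the HMGA2 values was not tested.

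HMGA1 (ENSG00000137309.19, chromosome 6, 34236873 to 34246231, forward strand) was at 569 FPKM in MKN1 siHOXB9 and 628 FPKM in MKN1 siScramble. In AGS it was at 428 FPKM with siHOXB9 and 698 FPKM with siScramble. These levels were above those of 97.7% to 98.5% of protein-coding genes at 1 FPKM or more. HMGA1 was lower with siHOXB9 in both lines, at 90.6% of the control in MKN1 and 61.4% in AGS (log2 -0.14 and -0.70), and did not pass the 2-fold rule in either. Over both lines, limma gave a change of -0.42 (SE 0.20, 1 library per siRNA in each of 2 lines), with an adjusted p of 0.713 over 13758 rows. The HMGA1 share of the summed HMGA FPKM was 96.1% and 97.3% in the siHOXB9 libraries of MKN1 and AGS, and 99.4% and 97.9% in the siScramble libraries. HMGA1 has processed pseudogenes, and reads could be split with them: HMGA1P8 was at 1.40 and 5.16 FPKM in MKN1 and 3.46 and 1.01 FPKM in AGS (siHOXB9 and siScramble).

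The IGF2BP family differed mainly between the lines. IGF2BP1 and IGF2BP3 were the main members in MKN1, while IGF2BP2 was the main member in AGS and IGF2BP1 was almost absent there. Line differences are given as MKN1 minus AGS, from limma over all 4 libraries with terms for line and siRNA. By an adjusted p of at most 0.05 and at least a 2-fold difference, 16.2% of all tested rows were higher and 20.9% lower in MKN1, so a call between these lines is common. HMGA2 was left out, and of HMGA1 and the 3 IGF2BP genes, IGF2BP1 and IGF2BP3 were called higher and IGF2BP2 lower in MKN1. IGF2BP1 passed the filter on low values only through MKN1, where it is high. The tests treat the 2 siRNA libraries of a line as its replicates, and the labels name no separate cultures, so the spread may be partly technical.

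IGF2BP1 (ENSG00000159217.9, chromosome 17, 48997412 to 49055650, forward strand) was at 21.6 FPKM in MKN1 siHOXB9 and 17.5 FPKM in MKN1 siScramble. In AGS it was at 0.00997 FPKM with siHOXB9 and 0.146 FPKM with siScramble. With its 8274-base transcript the AGS values correspond to an estimated 0.998 and 15.2 fragments, so the gene was close to the limit of detection in AGS. The line difference was 4.25 (SE 0.23, adjusted p = 7.55e-06 by limma). The filter fixed that IGF2BP1 would differ, and its call adds nothing to these values. The gene lies 371 kb from HOXB9 on chromosome 17. With siHOXB9 it differed by 0.28 in MKN1, and in AGS it was below the 1 FPKM needed for a within-line change.

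IGF2BP2 (ENSG00000073792.15, chromosome 3, 185643739 to 185825056, reverse strand) had the opposite order, at 4.79 and 2.32 FPKM in MKN1 and 24.6 and 19.5 FPKM in AGS (siHOXB9 and siScramble). Both MKN1 values were below both AGS values, and the line difference was -2.38 (SE 0.22, limma adjusted p = 0.000104). IGF2BP2 was the only gene of the 8 at 1 FPKM or more that was higher with siHOXB9 in both lines, by 0.80 in MKN1 and 0.32 in AGS. The limma change over both lines of 0.56 (SE 0.22) had an adjusted p of 0.688 and did not pass the threshold. In MKN1 the plain ratio of FPKM was 2.06, and the change passes the 2-fold rule with 0.1 in place of 1 FPKM added.

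IGF2BP3 (ENSG00000136231.13, chromosome 7, 23310209 to 23470467, reverse strand) was at 21.7 and 13.8 FPKM in MKN1 and 4.89 and 7.13 FPKM in AGS (siHOXB9 and siScramble). The MKN1 values were above the AGS values, with a line difference of 1.40 (SE 0.28, limma adjusted p = 0.00433), which does not pass the threshold without the filter on low values (adjusted p = 0.136). The difference was 1.94 in the siHOXB9 libraries alone and 0.86, under the 2-fold rule, in the siScramble libraries alone. With siHOXB9 the gene was higher in MKN1 (0.62) and lower in AGS (-0.46), and the limma estimate over both lines was 0.08 (SE 0.28, adjusted p = 0.985). Its 4250-base transcript shares 1521 exon bases with MALSU1, a mitochondrial ribosome factor gene on the opposite strand, and no strand-specific library step is described in the labels. MALSU1 was at 76.7 and 80.1 FPKM in MKN1 and 74.6 and 85.1 FPKM in AGS, with a line difference of -0.02 (SE 0.17). Its part in the IGF2BP3 values was not tested.

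The summed FPKM of the 3 IGF2BP genes was 48.0 in MKN1 siHOXB9 and 33.7 in MKN1 siScramble, and 29.5 in AGS siHOXB9 and 26.8 in AGS siScramble. In MKN1 siHOXB9, IGF2BP1 made up 44.9%, IGF2BP3 45.1% and IGF2BP2 9.98% of the sum. In MKN1 siScramble the shares were 52.1% for IGF2BP1, 41.0% for IGF2BP3 and 6.91% for IGF2BP2. IGF2BP2 made up 83.4% in AGS siHOXB9 and 72.8% in AGS siScramble, with IGF2BP3 at 16.6% and 26.6%.

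**Figure D3:**
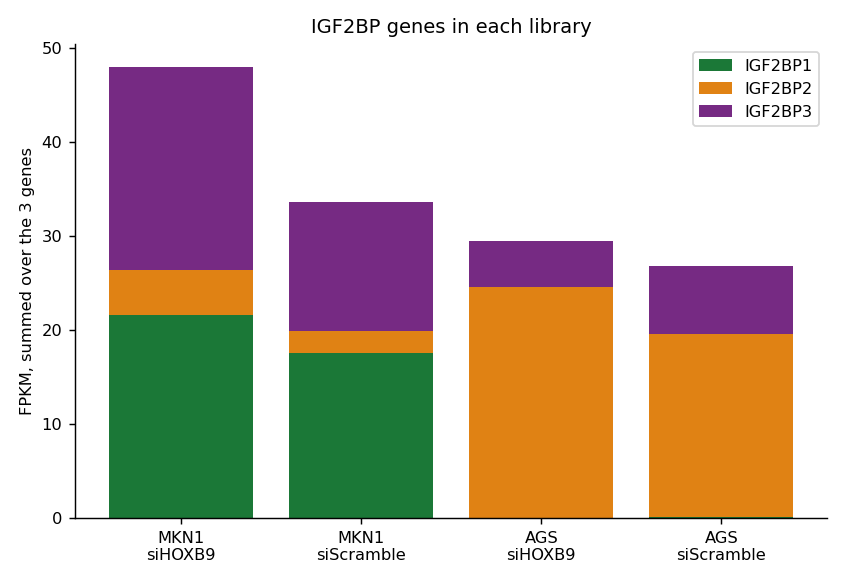
FPKM of IGF2BP1, IGF2BP2 and IGF2BP3 (stacked, vertical axis from 0) in the 4 libraries, 1 library per bar. IGF2BP1 and IGF2BP3 fill most of the MKN1 bars (sums of 48.0 and 33.7 FPKM) and IGF2BP2 most of the AGS bars (29.5 and 26.8 FPKM).

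LIN28A (ENSG00000131914.10, chromosome 1, 26410778 to 26429722, forward strand) was listed at 0 in 3 libraries and at 0.0250 FPKM in AGS siHOXB9, which corresponds to an estimated 0.998 fragments of its 3458-base transcript. LIN28B (ENSG00000187772.7, chromosome 6, 104936616 to 105083332, forward strand) was listed at 0 in all 4 libraries. A count of 0 allows up to 3 fragments, which in its 5505-base transcript is 0.0536 and 0.0497 FPKM in MKN1 and 0.0458 and 0.0440 FPKM in AGS (siHOXB9 and siScramble, counting error only). Neither gene was therefore detectable beyond single fragments at this depth, and no difference between groups could be measured.

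IGF2 (chromosome 11, 2129112 to 2158658, reverse strand) was at 0.128 FPKM in MKN1 siHOXB9 and listed at 0 in MKN1 siScramble. The symbol has 2 annotated gene identifiers, the first of them ENSG00000167244.19, and the span covers both. In AGS it was at 0.232 FPKM with siHOXB9 and 0.343 FPKM with siScramble. All 4 values were below 1 FPKM, so IGF2 entered no comparison. INS-IGF2 and IGF2-AS, which share exon bases with IGF2, were listed at 0 in all 4 libraries. Annotated genes without a matching row that also share exon bases with these genes, AC132217.1 with IGF2, LIN28B-AS1 with LIN28B and AC091133.2 and AC091133.3 with IGF2BP1, were not analysed here.

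With siHOXB9, 1 of the 5 genes measured in MKN1 passed the 2-fold rule. This was HMGA2, on which the choice was made, and 2.1% of all rows passed upward. In AGS 0 of 4 measured genes passed, where 1.68% of all rows passed upward and 2.21% downward. In MKN1 4 of the 5 measured genes were above 0, and in AGS 1 of the 4 was. The MKN1 count includes HMGA2, whose sign there was fixed by the choice. The medians over all measured rows were 0.09 in MKN1 and -0.06 in AGS. The share of all rows above 0 was not computed, so these counts do not show a lean of the genes as a set. Over both lines, limma called 0 of the oncofetal genes at an adjusted p of 0.05, with 1 (IGF2BP2) at an unadjusted p under 0.05. Among all tested rows it called 0% upward and 0.00727% downward, so the fit passes almost no gene. With 1 residual degree of freedom, the absence of a call does not show that the genes did not differ.

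**Figure D4:**
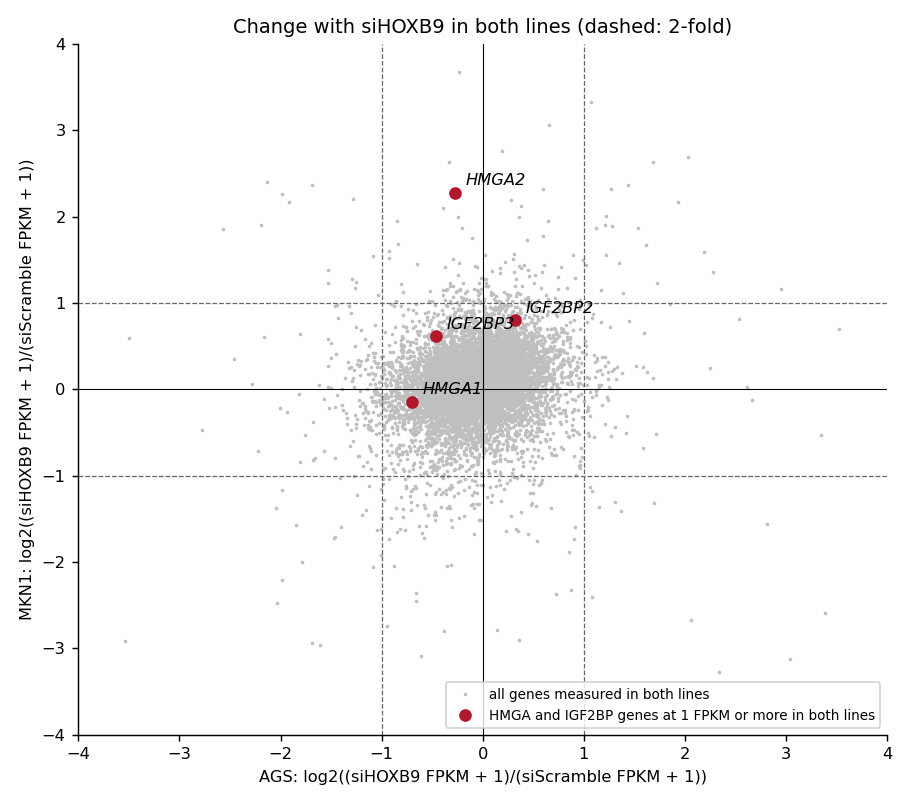
Change with siHOXB9 in AGS (horizontal axis) and in MKN1 (vertical axis), as log2 ratios with 1 FPKM added, for 11547 rows at 1 FPKM or more in both lines (grey) and the 4 oncofetal genes among them (red). Of the rows, 7 lie outside the axes. HMGA2 lies at 2.28 in MKN1 and -0.27 in AGS, outside the dashed 2-fold lines, and HMGA1, IGF2BP2 and IGF2BP3 lie within them.

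Of 19 genes that process or degrade let-7, 18 were measured in each line. In both lines 0 of them passed the 2-fold rule in either direction. Of all rows, 2.1% were higher and 1.94% lower in MKN1, and 1.68% and 2.21% in AGS, so 0 of 18 is near those shares. The list median was 0.14 in MKN1 and -0.09 in AGS, beside the medians of all rows given above. The most abundant was HNRNPA1, an RNA-binding protein that antagonises let-7 processing, at 1323 and 1296 FPKM in MKN1 and 1012 and 1227 FPKM in AGS (siHOXB9 and siScramble). TRIM71, a let-7 target that ubiquitinates proteins in stem cells, was listed at 0 in every library. Of 9 transcripts that host let-7 genes, 3 matched a row by symbol, and the most abundant was WDR82, at 32.2 and 31.5 FPKM in MKN1 and 31.5 and 34.4 FPKM in AGS.

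Of 32 genes described in the literature as let-7 targets, 26 were measured in each line. In MKN1 1 was 2-fold higher and 1 was 2-fold lower (median 0.22), where 2.1% and 1.94% of all rows were. In AGS 1 was higher and 0 lower (median -0.07), where 1.68% and 2.21% of all rows were. Counts this small are near those shares. ARID3B, a DNA-binding protein that, like HMGA2, belongs to the let-7 targets, was at 6.03 FPKM with siHOXB9 and 1.59 FPKM with siScramble in MKN1 (log2 1.44), and at 10.2 FPKM with siHOXB9 and 7.47 FPKM with siScramble in AGS (log2 0.41).

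CDK6, a kinase of the G1 phase, was at 11.6 FPKM with siHOXB9 and 24.9 FPKM with siScramble in MKN1 (log2 -1.04), and at 15.3 and 26.7 FPKM in AGS (log2 -0.77). It was lower with siHOXB9 in each line, opposite to HMGA2 in MKN1. For CDK6, limma gave -0.91 over both lines (SE 0.19, adjusted p = 0.355). CCND1, cyclin D1 and the most abundant of the list, was higher in both lines, at 310 FPKM with siHOXB9 and 195 FPKM with siScramble in MKN1 and at 283 and 241 FPKM in AGS, within the 2-fold rule. THBS1, a secreted matrix glycoprotein, passed it upward in AGS, at 4.67 FPKM with siHOXB9 and 1.60 FPKM with siScramble.

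Over the whole table, rows were also set side by side by their let-7 seed matches. In MKN1 28 of 1191 measured genes with at least 1 match in the longest 3' UTR were 2-fold higher (2.35%) and 14 lower (1.18%). Of 9437 genes without a match 116 were higher (1.23%) and 102 lower (1.08%). HMGA2, with no match in its longest 3' UTR, was counted among these 116. In AGS 6 of 1197 genes with a match were higher (0.501%) and 17 lower (1.42%), and of 9388 genes without one 91 were higher (0.969%) and 137 lower (1.46%). The median changes were 0.14 with a match and 0.10 without in MKN1, and -0.04 with a match and -0.06 without in AGS. Genes with a match had longer 3' UTRs, with a median of 3034 bases against 1243 bases in MKN1, and the part of that length in these shares was not tested.

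Partners and clients of the IGF2BP proteins and of IGF2 were described in the same way. In the IGF axis (receptors, substrates and binding proteins), 11 of 17 genes were measured in MKN1 and 9 in AGS, with medians of 0.13 and -0.11. In either line 0 passed the 2-fold rule. Of all rows, 2.1% were higher and 1.94% lower in MKN1, and 1.68% and 2.21% in AGS, so a count of 0 is near those shares. IGFBP7, a secreted IGF-binding protein and the most abundant, was at 937 and 819 FPKM in MKN1 and 0.959 and 1.18 FPKM in AGS. Its line difference was 8.73 (SE 0.18, limma adjusted p = 5.07e-07). With AGS siHOXB9 below 1 FPKM, IGFBP7 passed the filter on low values only through MKN1, where it is high. Its call therefore adds nothing to these values.

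Of 13 messenger RNAs described as bound by IGF2BP proteins, 13 were measured in MKN1 and 12 in AGS. In MKN1 0 of them passed the 2-fold rule (list median 0.09), beside 2.1% of all rows higher and 1.94% lower. In AGS BTRC, a ubiquitin ligase subunit, was the 1 gene 2-fold higher, with 0 lower (list median -0.16), beside 1.68% and 2.21%. BTRC was at 8.58 FPKM with siHOXB9 and 7.30 FPKM with siScramble in MKN1, and at 13.6 FPKM with siHOXB9 and 5.19 FPKM with siScramble in AGS. ACTB, the beta-actin message that IGF2BP1 localises, was at 4572 and 4448 FPKM in MKN1 and 1712 and 1892 FPKM in AGS. Its line difference was 1.32 (SE 0.19, limma adjusted p = 0.000789).

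Of 11 genes linked to HMGA proteins, 10 were measured in MKN1, with 1 higher and 1 lower (median 0.28), beside 2.1% and 1.94% of all rows. In AGS 9 were measured, with 1 higher and 1 lower (median -0.38), beside 1.68% and 2.21% of all rows. CCNA2, cyclin A2, whose promoter HMGA2 can activate, was lower with siHOXB9 in both lines, at 10.8 FPKM with siHOXB9 and 37.6 FPKM with siScramble in MKN1, where HMGA2 was higher, and at 12.5 and 36.2 FPKM in AGS. Over both lines CCNA2 had a limma estimate of -1.58 (SE 0.19, adjusted p = 0.0884). TGFBR2, a TGF-beta receptor, was at 27.2 FPKM with siHOXB9 and 12.9 FPKM with siScramble in MKN1 (log2 1.03), and at 14.5 and 21.4 FPKM in AGS (log2 -0.53). CDKN2A, the locus of the cell cycle inhibitor p16, was at 755 and 607 FPKM in MKN1 (log2 0.31), and at 1.67 FPKM with siHOXB9 and 0.237 FPKM with siScramble in AGS (log2 1.11).

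Of 15 other oncofetal genes, 11 reached 1 FPKM in some library. Measured were 6 in MKN1, with 0 past the 2-fold rule (median 0.06), beside 2.1% of all rows higher and 1.94% lower. In AGS 8 were measured, with 0 higher and 1 lower (median -0.32), beside 1.68% and 2.21%. H19, the imprinted noncoding RNA that lies 128 kb from IGF2 on chromosome 11, was that gene, at 242 FPKM with siHOXB9 and 818 FPKM with siScramble in AGS (log2 -1.76). In MKN1 H19 was at 136 FPKM with siHOXB9 and 197 FPKM with siScramble (log2 -0.52). Its limma estimate over both lines was -1.14 (SE 0.28, adjusted p = 0.465). H19 was thus at 136 FPKM or more in each library in which IGF2 was below 1 FPKM.

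**Figure D5:**
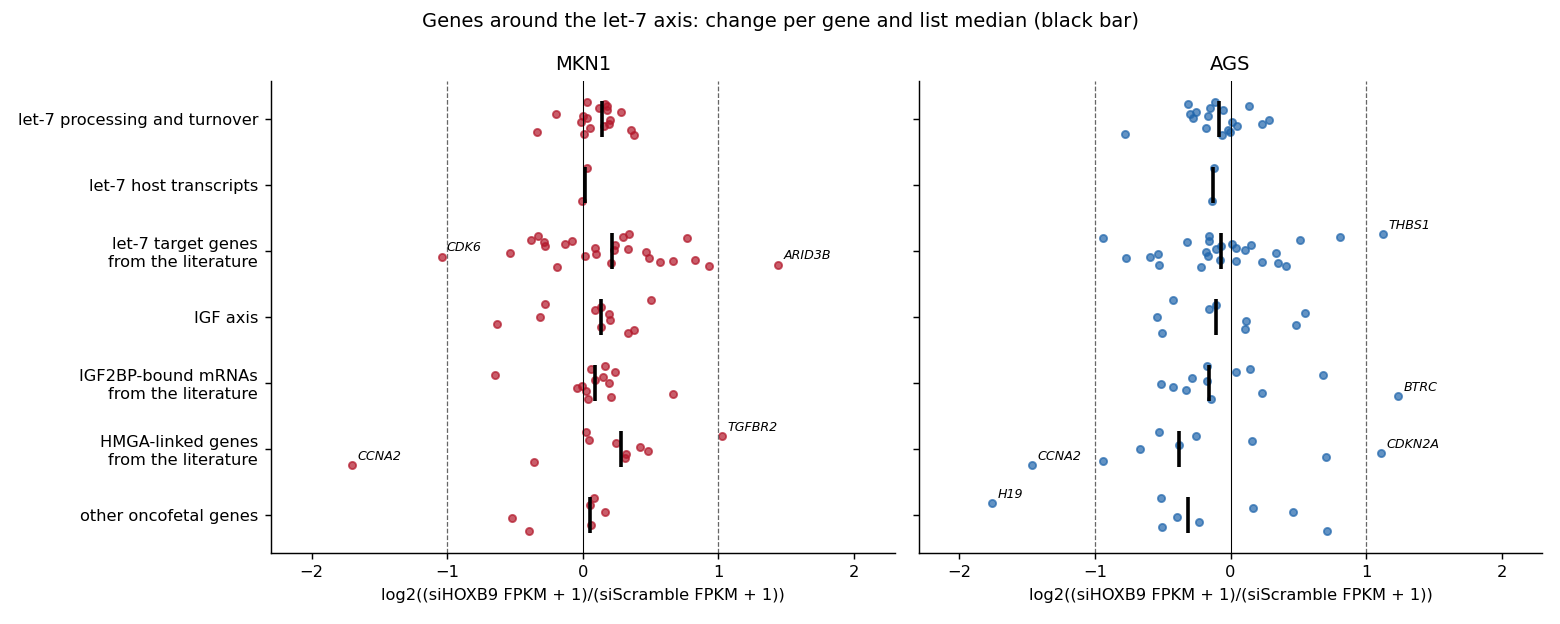
Change with siHOXB9 (horizontal axes, log2 ratio with 1 FPKM added) of each measured gene in the 7 lists around the let-7 axis, MKN1 at the left and AGS at the right, with list medians as black bars and 2-fold changes as dashed lines. Genes past 2-fold are named: ARID3B and TGFBR2 up and CDK6 and CCNA2 down in MKN1, and THBS1, BTRC and CDKN2A up and CCNA2 and H19 down in AGS.

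The genes whose profile over the 4 libraries was nearest to that of HMGA2 were PLCXD1, EEPD1 and KMT2C, among 9673 protein-coding rows at 5 FPKM or more in some library. Likeness was the root mean square distance between log2 profiles centred on their own mean, and was 0.178 for PLCXD1, 0.318 for EEPD1 and 0.385 for KMT2C. PLCXD1 was at 14.4 FPKM with siHOXB9 and 1.497 FPKM with siScramble in MKN1, and at 7.76 and 10.1 FPKM in AGS. Of the other 7 genes IGF2BP1 had the largest range, and the nearest to it were COL3A1 (distance 0.0634), PDE8B (0.0759) and SMIM10 (0.0796). COL3A1, a fibrillar collagen and 1 of the 5 fibroblast markers, was at 20.2 and 17.4 FPKM in MKN1 and 0.0605 and 0.0874 FPKM in AGS. In AGS, PDE8B was at 0.196 and 0.176 FPKM (siHOXB9 and siScramble) and SMIM10 was listed at 0 in both libraries. The likeness to IGF2BP1 thus rests in AGS on values below 1 FPKM, where the 1 FPKM added hides differences. With 4 libraries such distances describe these libraries only.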

How the data were processed

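FPKM per gene and library were computed by the authors and deposited as a single table for 4 libraries, per the labels. The submitters' processing notes name the builds GRCh38 and hg38; aligner, counter and annotation were not given in the sources used here. Within a line, the change was log2((siHOXB9 + 1)/(siScramble + 1)) for rows reaching 1 FPKM in at least 1 of its libraries, called at a size of 1. limma 3.58.1 (R 4.3.3) modelled log2(FPKM + 1) by cell line and siRNA, with an intensity trend, two-sided, and Benjamini-Hochberg adjustment covered all 13758 rows that reached 1 FPKM in 2 or more libraries. Depth came from the spacing of low FPKM of genes with a single transcript, taking 260 bases off each length. As only 51.0% to 53.3% of values came out whole (tolerance 0.05), fragment numbers are estimates and no count test was run. Transcripts, exons and 3' UTRs came from GENCODE 29. Members and lists were chosen with earlier results of these data known, and 1 gene was taken out of the lists and is not reported here. Genes named from a list were those past 2-fold, at most 4 per list and line, and the most abundant one; TRIM71, EPCAM, LYZ and CDH5 were named after their values were seen. Alternatives covered the pseudocount, scaling, filters, size rule, limma options and the cell line term.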

Additional observations from a re-analysis of the deposited data

Results flagged for a closer look

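Among the 8 oncofetal genes and the list genes past 2-fold in either line, 5 had values of opposite sign in the lines. In each case the difference between the lines was not tested, since each change is 1 library against 1. HMGA2 was at 2.28 in MKN1 and -0.27 in AGS (log2 with 1 FPKM added), IGF2BP3 at 0.62 in MKN1 and -0.46 in AGS, and TGFBR2 at 1.03 in MKN1 and -0.53 in AGS. The values of IGF2BP1 and IGF2 do not show opposite changes, since they rest on levels below the 1 FPKM needed for a change within a line. IGF2BP1 was at 0.28 in MKN1 and -0.18 in AGS, where it stood at 0.00997 FPKM with siHOXB9 and 0.146 FPKM with siScramble. IGF2 was at 0.17 in MKN1 and -0.13 in AGS, with every value below 1 FPKM in both lines.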

How the results depend on the processing

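The count of oncofetal genes past the size rule was 1 in MKN1, and became 2 with 0.1 FPKM added (HMGA2 and IGF2BP2) and 3 with a 1.5-fold rule (with IGF2BP3). In AGS it was 0, and became 1 with the 1.5-fold rule (HMGA1). The other scalings and filters left both counts as they were. Over both lines the siRNA estimate of IGF2BP1 turned to -0.43 with 0.1 FPKM added, -0.022 after quantile normalization and -0.18 in AGS alone; that of IGF2BP3 was -0.46 in AGS alone. In the siScramble libraries alone the line difference of HMGA1 was -0.15 and that of IGF2BP3 was 0.86. IGF2BP3 lost its call between the lines with no filter on low values; the cause was not tested. TGFBR2 fell within the 2-fold rule in MKN1 after rescaling to a common total (0.96), centring (0.93) and quantile normalization (0.89). Of 6 genes with let-7 matches, 5 remained with the shortest 3' UTRs or an 8-base match, and 7 had one in the transcript with the most matches, chosen after seeing the data.

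Over all rows, MKN1 had 276 higher and 255 lower by the 2-fold rule, against 205 and 311 after centring on the median gene and 570 and 455 with 0.1 FPKM added. AGS had 223 and 293, against 272 and 235 after rescaling, 266 and 249 after centring and 452 and 585 with 0.1 FPKM added. With a filter of 5 FPKM the counts were 128 and 129 in MKN1 and 101 and 155 in AGS. Between the lines limma called 2229 higher and 2880 lower, against 1271 and 1479 with no filter; the median difference of all rows was -0.10 before centring. Over both lines it called 0 higher and 1 lower, against 3 and 4 with the robust option and 4 and 4 with the filter of 5 FPKM. The fit over both lines pairs the siRNAs within a line through its cell line term, and no block of numbered replicates could be added, since each group has 1 library. Without a cell line term limma called 0 of the oncofetal genes over both lines. Depth limits LIN28A, LIN28B, IGF2, IGF2BP1 in AGS and HOXB9 in MKN1.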
